A study of Mus musculus with 4 samples.

Results

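The Rtl1-antisense miRNAs are a group of imprinted microRNAs from the Dlk1-Dio3 locus. Every array probe named for miR-127, miR-136, miR-337, miR-431, miR-433 or miR-434, in any arm, was taken, which gave 12 of the 696 miRNAs on the array. On the array they carry the prefix of the mouse (mmu-miR-127, mmu-miR-136, mmu-miR-337-3p, mmu-miR-337-5p, mmu-miR-431, mmu-miR-433, mmu-miR-434-3p, mmu-miR-434-5p and 4 asterisk forms), which is left out from here on. They stand for both arms of 6 hairpins. The samples were mandibular molar tooth germs of untreated ICR mouse embryos (an outbred laboratory strain) at embryonic days 11 and 12 (E11 and E12) and 14 and 16 (E14 and E16), an interval in which the molar passes from epithelial thickening to the bell stage. Total RNA of each stage was hybridised to 1 one-colour Agilent miRNA array. The number of embryos behind an array is not stated in the labels. With 1 array per stage there are no replicates and no test between stages. An error written after ± is the error that the array output states for a signal, or the combination of several such errors, and holds no variation between embryos.

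At the Dlk1-Dio3 locus the paternal chromosome expresses protein-coding genes, among them Rtl1, a retrotransposon-derived gene needed in the placenta and fetal vessels. The maternal chromosome expresses long noncoding RNAs, and the transcript that runs opposite to Rtl1 is cut into miRNAs that match the Rtl1 message and direct its cleavage. The locus is known for expression in embryonic mesenchyme, muscle, brain and placenta. A hairpin yields a 5p and a 3p miRNA, named for the side of the hairpin they come from, and usually 1 arm is retained over the other.

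By the RefSeq annotation (GRCm38.p6) all 6 hairpins lay on the plus strand of chromosome 12 and within the span of the Rtl1 gene. Their order was Mir337 (chr12:109585789-109585885), Mir431 (chr12:109590447-109590537), Mir433 (chr12:109591715-109591838), Mir127 (chr12:109592846-109592915), Mir434 (chr12:109594506-109594599) and Mir136 (chr12:109595327-109595388). Among the members Mir337 stood apart, 4561 bases before Mir431, with the genes Mir540 and Mir665 between them. The gaps between the other neighbouring members were 727 to 1590 bases. The span of Rtl1 also held 4 further listed miRNA genes, and none of their 6 probes (miR-673, miR-493, miR-540 and miR-665) was detected on any array.

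The mature sequences of the 9 detected members are printed because the seed, the stretch of bases 2 to 8 that pairs with target messages, largely sets which messages a miRNA can bind. Capitals mark the seed, and sequences are those of RefSeq. The probe names miR-127, miR-136, miR-431 and miR-433 carry no arm. They were read as the arms these names denoted in miRBase (miR-127-3p, miR-136-5p, miR-431-5p and miR-433-3p), with the asterisk form as the opposite arm.
miR-337-5p: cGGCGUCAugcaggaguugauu
miR-337-3p: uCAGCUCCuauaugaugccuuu
miR-431: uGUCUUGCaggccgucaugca
miR-433: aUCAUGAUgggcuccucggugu
miR-127: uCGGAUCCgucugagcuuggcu
miR-434-5p: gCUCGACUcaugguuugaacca
miR-434-3p: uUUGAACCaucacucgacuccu
miR-136: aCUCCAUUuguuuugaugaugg
miR-136*: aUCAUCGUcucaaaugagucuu

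No seed was shared between any members, and no other mature miRNA of the RefSeq table had the seed of any of the 12. The group is therefore 1 of position and not a seed family.

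Some members nevertheless had runs of letters in common, which in part cover the seed of 1 or both of the pair. In the next lines capitals mark such runs in the arms of miR-434 and in miR-337-5p with miR-431. Both arms of miR-434 hold the same 9 bases, and miR-337-5p and miR-431 share another 9.
miR-434-5p: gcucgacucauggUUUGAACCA
miR-434-3p: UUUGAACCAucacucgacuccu
miR-337-5p: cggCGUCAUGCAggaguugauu
miR-431: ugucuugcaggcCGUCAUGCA

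The arms of miR-431 shared a run of 10 bases, which is not marked in those lines and reaches into both seeds. Thus 2 of the 6 arm pairs of these hairpins held a common run of at least 9 bases, against 1.41% of the 640 precursors with both arms in the RefSeq table. Whether this affects any signal was not tested. The probe of miR-431* was not detected at any stage while that of miR-431 always was.

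Detection came first. Of the 12 probes, 7, 8, 7 and 9 were detected at E11, E12, E14 and E16, and 7 were detected at all 4 stages: miR-127, miR-431, miR-433 and both arms of miR-337 and miR-434. miR-136 and its opposite arm miR-136* were detected at some stages only. miR-127*, miR-431* and miR-433* were detected at none. Over all 696 miRNAs the share detected was 30.0% at E11 and 35.9% at E16.

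The values in the next paragraphs are deposited signals, without any scaling, in the order E11, E12, E14 and E16. The arrays became brighter with stage: the 75th percentile of the 197 miRNAs detected throughout was 249.99, 398, 528 and 676 over the same stages. A signal that stays level is therefore a smaller part of its array at the later stage. Probes differ in affinity, so levels are compared between stages and not between members.

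miR-127, the retained 3p arm of its hairpin and a repressor of Rtl1 in the placenta, gave 232 ± 18.1, 383 ± 29.8, 290.3 ± 22.5 and 337.5 ± 26.2. It was highest at E12 and lowest at E11 on this scale. miR-434-3p had 161 ± 12.8, 216 ± 17.2, 146 ± 11.9 and 148 ± 12.4. Its E12 signal stood above the other stages, which lay within their combined errors of their neighbours.

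miR-431, the 5p arm, had 76.6 ± 7.72, 87.6 ± 9.32, 59.5 ± 6.88 and 59.6 ± 7.47. The 2 early stages were high and the 2 later stages alike. miR-433, the 3p arm, had 43.8 ± 5.57, 42.4 ± 6.21, 25.4 ± 4.36 and 20.5 ± 4.62, so that its early stages were also the high ones. miR-337-5p had 36.9 ± 5.56, 44.5 ± 7.15, 35.0 ± 5.61 and 32.2 ± 6.29, with no gap between neighbouring levels beyond its combined error.

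The remaining arms of miR-337 and miR-434 had their lowest signals at E11. miR-337-3p had 11.8 ± 2.37, 33.3 ± 4.81, 25.4 ± 3.75 and 35.8 ± 4.61, with E11 below every later stage. miR-434-5p had 13.9 ± 3.68, 23.0 ± 5.08, 20.8 ± 4.12 and 44.8 ± 6.78, with E16 above every earlier stage. Both E11 signals were dim, at 4.98 and 3.76 times their stated error, where the lowest detected signal of that array was 5.48.

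miR-136 was not detected at E11, was at 20.01 ± 4.95 at E12, was not detected at E14 and reached 80.5 ± 8.33 at E16. Its opposite arm miR-136* was detected at E16 alone, at 20.9 ± 4.64, so the stage with the highest miR-136 signal was the only stage with both arms. After scaling, miR-136 was at least 5.43-fold higher at E16 than at E11 and at least 11.1-fold higher than at E14, and miR-136* at least 1.41-fold and 2.88-fold higher. Each bound takes the dimmest detected miRNA of the opposite array as its reference and is nominal, because detection also depends on the error of the probe. Without scaling they were 14.7-fold, 14.1-fold, 3.82-fold and 3.68-fold. The stages with a miR-136 signal were also those with more neural markers detected, 3 and 4 of 8 at E12 and E16 against 2 and 2 at E11 and E14; the summed signals of that list were 93.9, 179.7, 125 and 216 in stage order. miR-124, miR-9, miR-9* and miR-132 of that list were not detected at any stage. In unscaled sums the pattern was not particular to neural markers. Unscaled sums of the mesenchymal markers (10968, 17042, 11227 and 12895) and endothelial markers (240, 446, 427 and 791) were also higher at E12 and E16 than at E11 and E14. No marker sum was scaled, the neural ones included, and the 75th percentile of the arrays rose from 249.99 at E11 to 676 at E16. A higher sum at E16 need not be a larger part of its array. The epithelial, erythroid and leukocyte sums instead were higher at E14 than at E12. The part of neural cells in the miR-136 signal was not tested.

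**Figure D1:**
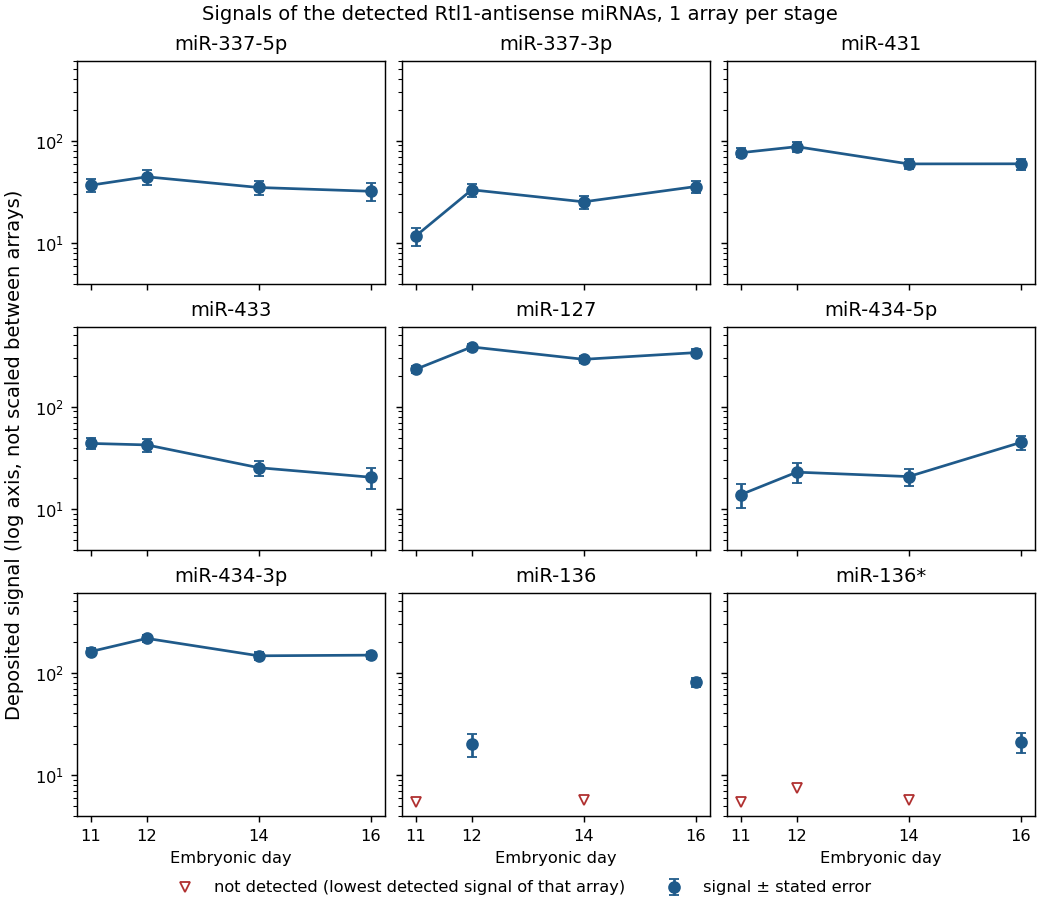
Deposited signal of each detected Rtl1-antisense miRNA (y axis, log scale, not scaled between arrays) against embryonic day (x axis), with the stated error of each signal as a bar; open triangles mark stages without detection, drawn at the lowest detected signal of that array. miR-433 is lower at E14 and E16 than before, miR-337-3p is lowest at E11, miR-434-5p is highest at E16, and miR-136 is present at E12 and E16 only.

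E16 was then set against E11, the ends of the series. The log2 signal was taken relative to the array's 75th percentile over the miRNAs detected throughout, and differences are later minus earlier on that scale. With 7 members measured on both arrays, 4 were lower by 2-fold or more at E16 and 0 were higher by as much. The background was 37.6% of 205 miRNAs lower and 13.7% higher. Without scaling 1 member was 2-fold lower and 2 were higher, and over all miRNAs 9 were lower and 92 higher against 77 and 28 with scaling. The median of the 7 was -1.55 beside -0.74 over all 205 (-0.12 beside 0.69 without scaling). Scaling thus moves every value, and the distance from the all-miRNA median, which no constant scaling alters, is given with each.

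miR-433 was 5.78-fold lower at E16 (log2 -2.53 ± 0.37), which was -1.79 relative to the median of all miRNAs and place 7 of 205 from the bottom. It was lower under all 6 scalings, from -2.56 to -1.10. Quantile normalization and the authors' table, counted apart among the 6, gave the same member values. The E16 signal of miR-433 was dim, at 4.44 times its stated error. miR-431 was at -1.80 ± 0.23 and place 23, miR-337-5p at -1.63 ± 0.36 and place 28, and miR-434-3p at -1.55 ± 0.17 and place 34. Relative to the all-miRNA median they were at -1.05, -0.89 and -0.81. Those 3 were also lower under all 6 scalings, but at -0.36, -0.20 and -0.12 without scaling.

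miR-127 was at -0.90 ± 0.16, place 86 of 205, and differed from the median of all miRNAs by less than its error (-0.15). Its sign turned without scaling, to 0.54, while quantile normalization and the authors' table put it past 2-fold (-1.06), which made 5 of the 7 members lower in place of 4. miR-337-3p (0.17 ± 0.34, place 146) and miR-434-5p (0.26 ± 0.44, place 154) were within their errors of 0 with scaling. They lay 0.91 and 0.9997 above the all-miRNA median and were positive under all 6 scalings, up to 1.60 and 1.69 without scaling. Members of 1 short stretch of genome thus covered places 7 to 154 of 205.

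**Figure D2:**
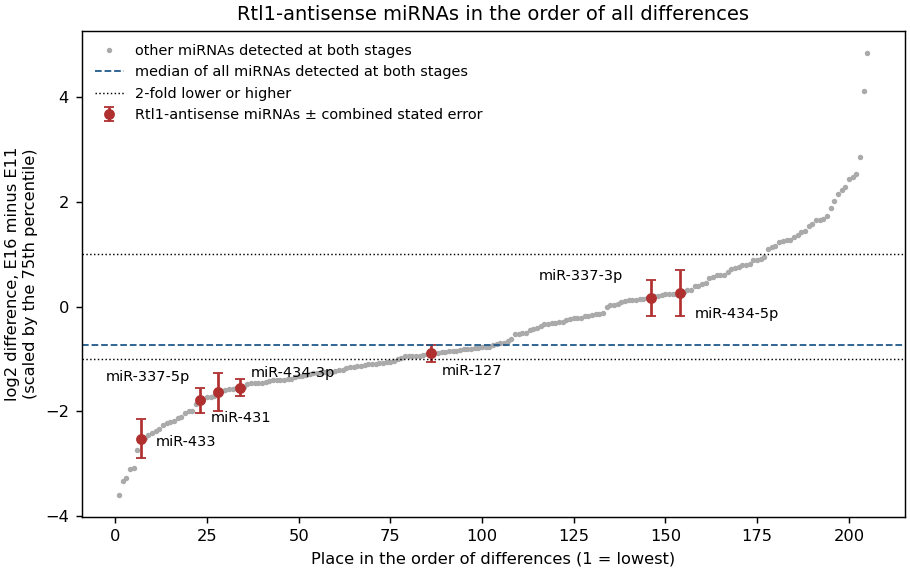
Scaled log2 difference, E16 minus E11 (y axis), of the 205 miRNAs detected at both stages in order of size (x axis, place from the lowest), with the 7 Rtl1-antisense miRNAs in red and their combined stated errors as bars. miR-433, miR-431, miR-337-5p and miR-434-3p lie among the lowest 34 places, miR-127 near the dashed median, and miR-337-3p and miR-434-5p above it.

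**Figure D3:**
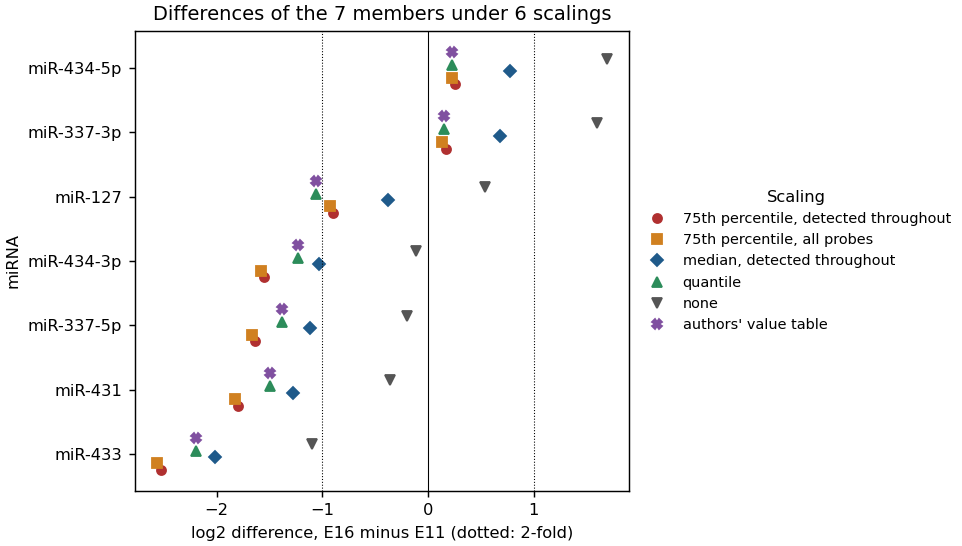
Log2 difference, E16 minus E11 (x axis), of each of the 7 members (y axis) under 6 ways of scaling the arrays; dotted lines mark 2-fold. The order of the members is the same in each, and the unscaled values lie 1.44 to the right of the main ones.

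Pairs of members were compared directly, since the difference between the changes of 2 miRNAs on the same arrays does not depend on a constant scaling. Of 21 pairs among the 7 members, 14 differed in their change from E11 to E16 by more than 2 combined errors. The change of miR-337-3p minus that of miR-433 was 2.70 ± 0.51, and the change of miR-433 minus that of miR-434-5p was -2.79 ± 0.58. miR-431 minus miR-434-3p was -0.24 ± 0.29, and the pairs of miR-337-5p with either were closer still. miR-127 differed from miR-433 by 1.64 ± 0.41 and from miR-434-3p by 0.66 ± 0.23.

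In 2 hairpins both arms were detected throughout, and their courses parted. In miR-337 the 3p arm changed by 1.60 and the 5p arm by -0.20 from E11 to E16 in the deposited signals, so that the 3p arm gained 1.80 ± 0.50, or 3.48-fold, on the 5p arm. In miR-434 the 3p arm changed by -0.12 and the 5p arm by 1.69, so that here the 5p arm gained 3.50-fold (3p minus 5p -1.81 ± 0.47). The contrast was 3.63 and 3.83 times its combined error, with opposite arms gaining in the 2 hairpins.

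The timing differed. In miR-337 the gain lay in the first step, 1.23 ± 0.48 from E11 to E12, with -0.04 ± 0.44 and 0.62 ± 0.46 in the later steps. Without the E11 array, from E12 to E16, it was 0.57 ± 0.46, so the contrast rested on the dim E11 signal of the 3p arm. In miR-434 the first 2 steps gave -0.30 ± 0.52 and -0.42 ± 0.46 and the last -1.08 ± 0.40. Without the E16 array, from E11 to E14, it was -0.72 ± 0.51, and without E11, from E12 to E16, it was -1.50 ± 0.42. The arms of miR-434 share the 9-base run printed above, and what that run adds to their signals was not tested.

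Such arm contrasts were common on these arrays. Among 18 arm pairs found by name with both arms detected at E11 and E16, 8 (44.4%) changed by at least 2-fold relative to each other, and the median size was 0.78 with a median error of 0.43. miR-434 and miR-337 took places 4 and 5 from the largest. For the 3 steps the share of pairs past 2-fold was 21.1% of 19, 15% of 20 and 16.7% of 24, with miR-337 past it in the first and miR-434 in the last. Places 1 and 2 were also pairs of the Dlk1-Dio3 locus, miR-154 with miR-154* (2.17 ± 0.39) and miR-411 with miR-411* (2.15 ± 0.50), while miR-382 with miR-382* was last (0.01 ± 0.56). These 3 pairs were named after their values were seen.

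**Figure D4:**
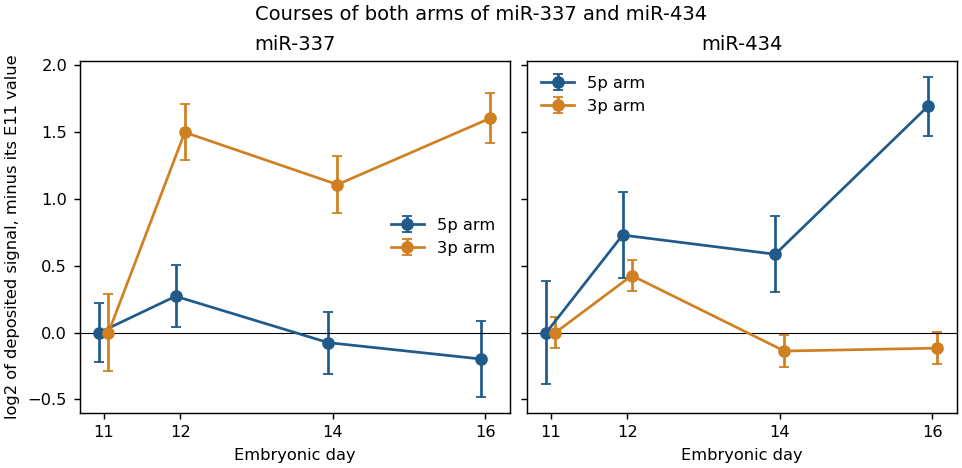
Log2 of the deposited signal minus its E11 value (y axis) against embryonic day (x axis) for the 5p arm (blue) and 3p arm (orange) of miR-337 and miR-434; bars are the stated error of each signal. The arms of miR-337 part between E11 and E12, by 1.23, and those of miR-434 part most between E14 and E16, by 1.08.

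From E11 to E12, epithelial thickening to bud, none of the 7 members passed 2-fold in either direction (background 8.46% lower and 9.45% higher of 201). Their median was -0.24 beside -0.20 over all miRNAs. miR-337-3p was highest at 0.83 ± 0.36 and positive under all 6 scalings. miR-433 was lowest at -0.72 ± 0.28 and negative under all 6. miR-127 (0.05 ± 0.16) and miR-434-5p (0.06 ± 0.50) were within their errors of 0, and the other 3 lay between -0.47 and -0.24.

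From E12 to E14, bud to cap, the members were most alike. All 7 were lower under all 6 scalings, and all 7 lay below the median of all miRNAs, as 106 of 212 did. The 6 are not independent, since quantile normalization and the authors' table gave the same member values. Without scaling miR-434-5p (-0.14 ± 0.43) was within its error of 0. Their values ran from -1.15 to -0.55 with a median of -0.81, beside -0.40 over all 212. miR-433 (-1.15 ± 0.33) was the 1 member at least 2-fold lower (background 15.1% lower, and 12.7% higher where no member was), with miR-434-3p (-0.97 ± 0.16) and miR-431 (-0.97 ± 0.23) just short of it and miR-127 at -0.81 ± 0.16. At 1.5-fold 6 of 7 were lower, against 36.8% of all 212. In units of the combined error, the distance from the all-miRNA median was 3.51 for miR-434-3p, 2.62 for miR-127, 2.52 for miR-431 and 2.31 for miR-433, and under 1.4 for both arms of miR-337 and for miR-434-5p. miR-136 was lost from detection in the same step, with a nominal bound of at least 4.67-fold lower (3.52-fold without scaling). Its E12 signal was dim, at 4.04 times its stated error.

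From E14 to E16, cap to bell, none of the 7 passed 2-fold when scaled by the 75th percentile (background 13.4% lower and 7.36% higher of 231). Their median was -0.33 beside -0.06 over all miRNAs. miR-434-5p was highest at 0.75 ± 0.36, passed 2-fold without scaling (1.11), with quantile normalization and in the authors' table (1.04 in both) and stood at place 200 of 231 from the bottom. miR-433 was lowest at -0.66 ± 0.41. Within their errors of 0 were miR-127 (-0.14 ± 0.16) and miR-337-3p (0.14 ± 0.28).

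Over the whole course, miR-433, miR-431, miR-434-3p and miR-337-5p had their scaled levels in the order E11, E12, E14, E16 from high to low, with every gap beyond its combined error. That order depends on scaling: in the deposited signals 3 of the 4 were highest at E12 instead, miR-434-3p beyond its error and miR-337-5p and miR-431 within theirs, and miR-433 was highest at E11, also within its error. For miR-127 the scaled levels formed 2 early and 2 late stages, with a gap of 0.76 ± 0.16 between E11 and E14 and the others within error. miR-337-3p was highest at E12 and miR-434-5p at E16 with scaling, the latter by less than its error over E12. Centred on each member's own mean, the 7 courses ranged from 0.10 to 0.57 at E12 and from -0.59 to -0.23 at E14, and more widely at E11 (-0.26 to 1.28) and E16 (-1.25 to 0.30).

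The other miRNAs of the locus were read from lists of their genes. In the miR-379 to miR-410 cluster, further along the locus, 24 of 52 probes were detected at both E11 and E16. Of these, 18 were at least 2-fold lower and 0 higher at E16, beside 37.6% and 13.7% of all 205 miRNAs. Without scaling 2 were lower and 4 higher. Their median was -1.66 (-0.23 without scaling), beside -1.55 for the 7 members. From E12 to E14 22 of 23 probes of the cluster lay below the all-miRNA median, as 106 of all 212 did. At least 2-fold lower were 14 probes of the cluster, beside 15.1% of all 212, and 5 without scaling. Its 4 members of highest level at E11 and E16 were miR-494 (-0.26 ± 0.16), miR-329 (-2.03 ± 0.17), miR-410 (-1.78 ± 0.17) and miR-300 (-0.83 ± 0.19); the first and last of these turned positive without scaling, to 1.18 and 0.60. Of the 12 probes of the remaining listed genes of the locus, miR-370 alone was detected at E11 and E16 (-1.34 ± 0.57, and 0.10 without scaling). It differed from the members by a signal of 61.4 ± 6.65 at E14 over 15.0 ± 4.76 at E12. miR-494 of the cluster had a peak at E14 too, with 231 ± 18.5 at E12, 2308 ± 174 at E14 and 614 ± 46.7 at E16.

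**Figure D5:**
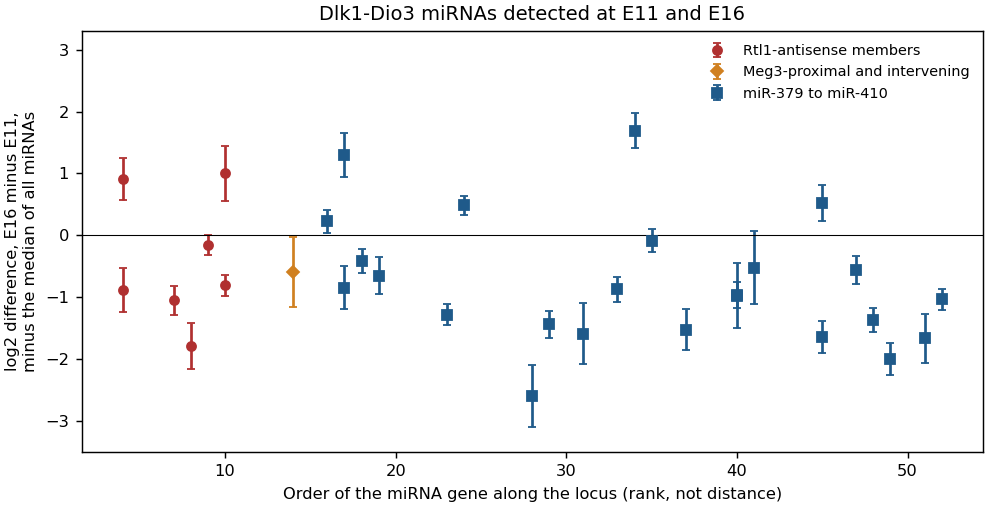
Log2 difference, E16 minus E11, minus the median of all miRNAs (y axis) for the 32 Dlk1-Dio3 miRNAs detected at both stages, in the order of their genes along the locus (x axis, rank and not distance); bars are combined stated errors. The Rtl1-antisense members range from -1.79 to 0.9997 and the miR-379 to miR-410 cluster spreads over both sides of 0, with most points below it.

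Likeness of course was measured as the root mean square distance, over the 4 stages, between a miRNA's centred log2 course and the mean course of the 7 members. The 5 closest of 190 other miRNAs detected throughout were miR-299* of the same locus (0.03), miR-296-5p, from the imprinted Gnas locus (0.09), miR-214* (0.12), miR-675-3p, from the imprinted H19 transcript (0.12), and miR-125a-5p (0.12). Of the 24 other Dlk1-Dio3 miRNAs in that comparison, 1 was among the 5. The members' own distances ran from 0.10 for miR-127 to 0.54 for miR-434-5p, and 100 of the 190 others lay within the latter. By the correlation of the 4 values, 2 of the 5 recurred.

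The tissue label was set against marker miRNAs. All 6 mesenchymal probes were detected at every stage, with summed deposited signals of 10968, 17042, 11227 and 12895 in stage order. E12 was highest in these unscaled sums, as in the unscaled signals of 4 of the 7 members. For miR-431 and miR-337-5p among them that lead lay within the error. With scaling these and miR-434-3p were highest at E11. The marker sums were not scaled, and a constant scaling would move them by the same factor as the members. The likeness is therefore given for unscaled signals only. Of 7 epithelial probes 6 were detected at E11 and all from E12, with unscaled sums from 1795 at E11 to 9364 at E16. The 75th percentile of the arrays rose from 249.99 to 676 between the same stages, so part of that rise is shared by the array. The share of each tissue layer in the members' differences was not tested, and in such bulk RNA fewer cells of a type cannot be told apart from less RNA per cell. None of 6 muscle probes was detected at any stage. Erythroid miR-451 was detected throughout, endothelial miR-126-3p and miR-126-5p likewise, and 0, 1, 1 and 2 of 3 leukocyte probes in stage order.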

How the data were processed

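The deposited values of the 4 arrays are the intensity of each feature (total gene signal), its error and a detection flag, per the file headers; undetected features are written as 0.1. A second deposited table, of linear intensity, was normalized by the authors in a way that no label describes. Quantile normalization of all features gave its 929 detected values to within 0.1%, and no centring was found. No header or label names the software, the array design or the background correction. Of 718 features, 22 controls were left out. Detected signals were taken as log2 minus the array's 75th percentile over the 197 miRNAs detected throughout. The number of arrays limits the precision. Members, lists and size rules were chosen with earlier results of these data known. Named were all members, the 5 miRNAs of closest course and up to 4 of highest level per other list of the locus. The alternatives were 5 other scalings, a 1.5-fold size rule, signal at least 3 times its error as detection, and correlation as likeness. Sequences came from RefSeq (GRCm38.p6), in which all 76 probes of the 3 locus lists matched a gene; the array files name no build. A match of the hairpins to the Rtl1 protein was not analysed here. The computation of differences was tested on simulated data with known shifts. Every simulated miRNA was detected, and quantile normalization was exempt from the requirement to class all of them rightly. Python 3.11.15, pandas 2.3.3 and numpy 2.4.6 were used.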

Additional observations from a re-analysis of the deposited data

How the results depend on the processing

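No paired analysis was possible because each stage has 1 array, and no replicate could be left out. Signals near the lowest detected one (5.48 to 7.43) limit the dim arms miR-337-3p and miR-434-5p at E11. The miR-433 signal at E16 was also dim, at 4.44 times its stated error. Quantile normalization and the authors' table gave the same member values. For E16 versus E11, no scaling gave 1 member at least 2-fold lower (4 in the main analysis) and 2 higher (0), and a member median of -0.12; median scaling gave a median of -1.03 (-1.55). No scaling moved the member median to 0.43, -0.40 and 0.022 for the 3 steps (-0.24, -0.81 and -0.33), and gave 1 member higher from E11 to E12, 0 lower from E12 to E14 and 1 higher from E14 to E16. Median scaling left 0 lower from E12 to E14 (1). From E14 to E16 quantile normalization and the authors' table each gave 1 higher (0). The 1.5-fold rule gave 1 lower and 1 higher from E11 to E12, 6 lower from E12 to E14, and 1 lower and 1 higher from E14 to E16.

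For the other Dlk1-Dio3 miRNAs, E16 versus E11 gave 2 lower without scaling (19) and 2, 1, 4 and 1 higher (0) with median scaling, with quantile normalization, without scaling and in the authors' table. From E11 to E12 the percentile over all probes, quantile normalization and the authors' table each gave 3 lower (1) and 0 higher (1), and no scaling 2 higher. From E12 to E14 median scaling gave 9 lower (14) and no scaling 5. Of the 5 closest courses 2 recurred with correlation. Of 28 single-member differences, 24 moved by more than their error without scaling, 13 with median scaling, 6 with quantile normalization, 6 in the authors' table and 3 with the percentile over all probes; none of at least 2-fold changed sign. The arm contrasts of miR-337 and miR-434 and the numbers detected moved by less than their error or not at all. The percentile, median and unscaled alternatives differ from the main analysis by a constant per array; quantile normalization and the authors' table do not, and the cause of the moves there was not tested. Both gave 5 members at least 2-fold lower for E16 versus E11.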
